A study of Rattus norvegicus with 15 samples.

Results

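Livers of rats fed genistein were compared with livers of rats fed daidzein, the main isoflavones of soy. The comparison used the 10 arrays whose titles name either diet, 5 per diet, out of 15 arrays in the series. All animals were male Sprague-Dawley rats that entered the experiment at 4 weeks of age, had 5 days of adaptation and then ate their diet for 14 days. Each isoflavone diet held 2 g/kg of its compound on the same base, in which casein made up 200 g/kg and palm oil 100 g/kg. The other 5 arrays came from rats on that base diet with no isoflavone; their levels are given for orientation, and they took no part in the test. The titles call the arrays of a diet biological replicates. Only 1 dose and 1 duration were used, food intake and circulating isoflavones were not analysed here, and the series asks how the compounds compare in their effect on hepatic lipid metabolism.

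Genistein and daidzein share the isoflavone skeleton, and genistein carries 1 hydroxyl group more, on the A ring. Both bind estrogen receptors weakly. The liver conjugates both with glucuronic acid and sulfate, and gut bacteria of the rat can turn daidzein into equol. The genes described below belong mainly to detoxification controlled by the transcription factor NRF2, to the set of liver genes that differ between male and female rats under the pattern of growth hormone secretion, and to lipid metabolism.

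Only 1 pair of compounds was compared, and 2 genes passed the test, both lower with genistein: Akr7a3, an aldo-keto reductase that reduces aflatoxin aldehydes, and Apon, an apolipoprotein. They were 2 of 18575 probe sets tested, or 0.0108% (limma, Benjamini-Hochberg adjusted p under 0.05), and 2 of 10721 genes, or 0.0187%. No gene passed as higher. Without adjustment 934 genes (8.71%) had p under 0.05, of which 463 (4.32%) were higher and 471 (4.39%) lower with genistein. In 233 genes (2.17%) the 5 genistein arrays and the 5 daidzein arrays did not overlap, 117 higher (1.09%) and 116 lower (1.08%). With 5 against 5 arrays the smallest two-sided exact permutation p for a single value is 0.0079.

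Levels are log2 values rebuilt from the deposited scores, so a difference of 1 is a 2-fold change on that rebuilt scale, and differences are genistein minus daidzein. For 10119 of the 10721 genes (94.4%) the 95% confidence interval of the difference lay within -1 to 1, and for 7344 (68.5%) within -0.5 to 0.5. The difference exceeded 1 in size in 81 genes (0.756%). The median difference over all genes was 0.0017, and the median standard error was 0.133.

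**Figure D1:**
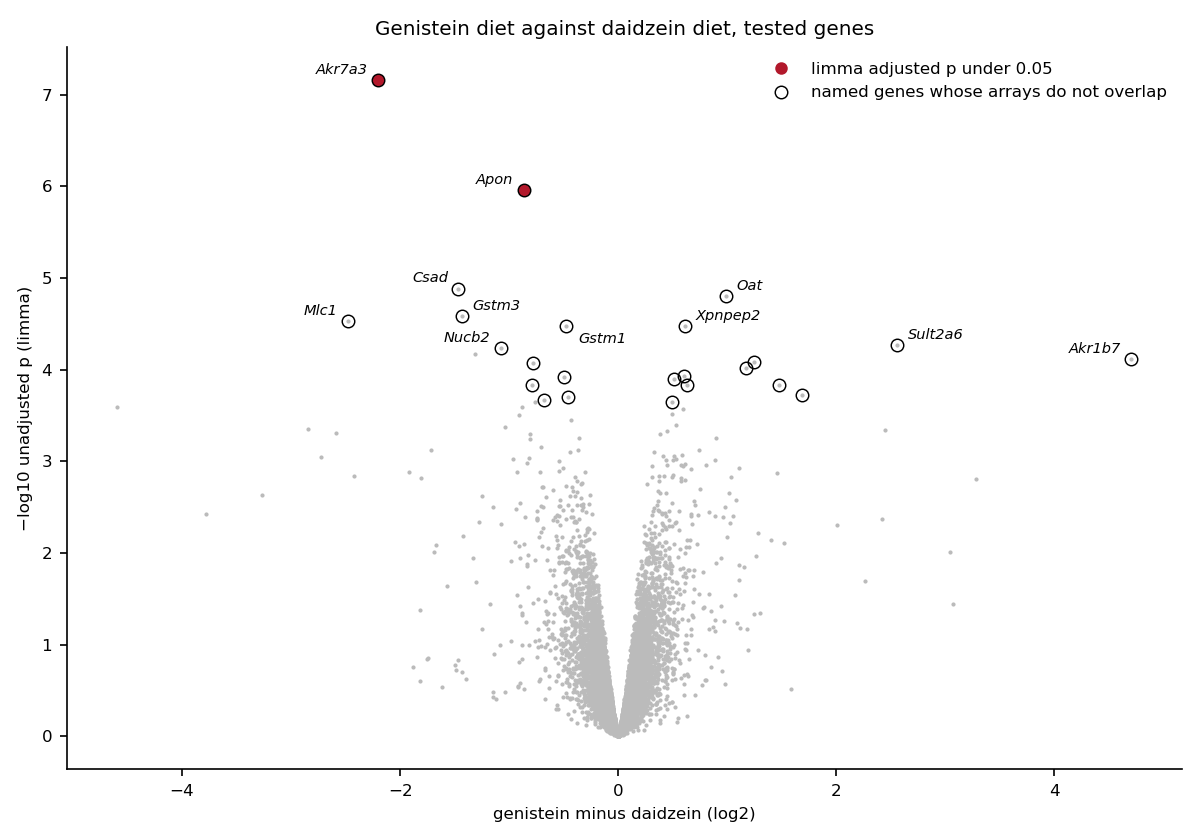
Difference between the diets (x axis, genistein minus daidzein, log2) against the unadjusted limma p (y axis, −log10) for the 10721 genes tested, each a point. Akr7a3 and Apon are the 2 filled points, and the open circles mark the 24 genes of lowest p, 12 per direction, among those whose arrays did not overlap.

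Correlations between the 10 arrays, over the probe sets tested, lay between 0.936 and 0.968. Alb, serum albumin, the defining product of hepatocytes, was the brightest value in every array, at 14.60. Of 7 array measures compared by two-sided exact permutation tests, the second principal component (15.03% of the variance) had the lowest p, 0.016 (0.11 after Benjamini-Hochberg adjustment over the 7). Daidzein 5 carried messages of digestive enzymes made by the pancreas. Its levels of Prss1 (12.92), Amy2a3 (12.47), Pnlip (12.24), Cpa1 (11.23), Cela1 (11.18) and Ctrb1 (11.16) were 2.52 to 7.11 log2 units above the highest of the 14 other arrays. The summed linear signal of the 6 was 25264 in daidzein 5, at most 421 in the other daidzein arrays and 344 to 397 in the genistein arrays. The summed signal of 7 hepatocyte genes was 90609 in daidzein 5 and 88798 to 91852 over the 10 arrays. Quantile normalization sets the brightest ranks equal, so this sum says nothing of the hepatocyte content of daidzein 5. In all, 33 probe sets of daidzein 5 stood more than 1 above all 14 others, the most of any array. The next counts were 26 in 1 isoflavone-free array and 21 in daidzein 2. Both calls remained without daidzein 5.

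**Figure D2:**
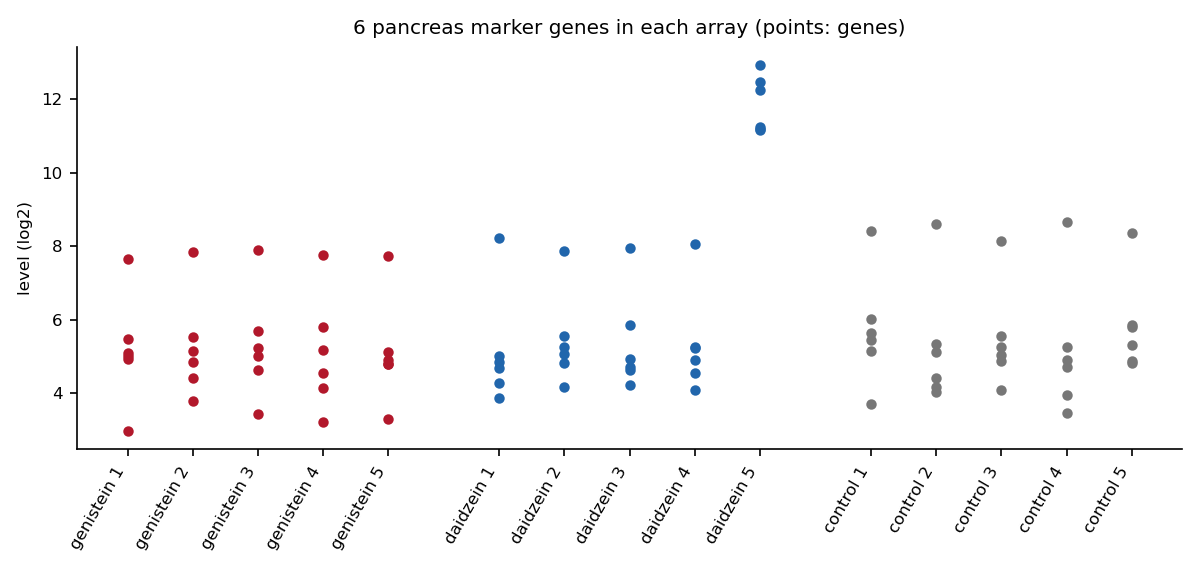
Level (log2) of 6 digestive enzyme genes of the pancreas in each of the 15 arrays, each point a gene and each column an array. In daidzein 5 all 6 lie between 11.16 and 12.92, above every other array.

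Genistein 4 correlated more closely with the daidzein arrays (mean r = 0.953) than with its own diet (0.950). Genistein 4 and daidzein 2 had the highest scores on the first component (28.6 and 36.1, with 20.7% of the variance). They also had the lowest 3' minus 5' difference of beta-actin (0.878 and 0.874, against 0.961 to 1.148 in the others). The same difference for Gapdh did not set these arrays together. It was highest in genistein 4 (0.098), while daidzein 2 (-0.031) lay within the range of the others (-0.057 to 0.032). Without genistein 4 the test called 57 of 18580 probe sets (0.307%), 29 higher (0.156%) and 28 lower (0.151%), and these were 40 genes. Both main calls were among them. For the genes and lists described below whose call changed without this array, that call is given too. Genistein 3 carries the suffix "-re" in its description; its meaning is not stated. With all 15 arrays in the model, which takes error from the third diet too, 21 of 18567 probe sets (0.113%) were called, 6 higher (0.0323%) and 15 lower (0.0808%), and both main calls were among these as well.

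Akr7a3 (Entrez gene 26760) stood at 8.50, 8.70, 8.73, 8.63 and 9.38 in genistein 1 to 5 and at 11.28, 11.03, 10.69, 10.996 and 10.94 in daidzein 1 to 5. Every daidzein array was above every genistein array by more than 1 unit, and the genistein arrays lay around the isoflavone-free arrays, which ranged from 8.65 to 9.21. Means were 8.79 ± 0.34 with genistein and 10.99 ± 0.21 with daidzein (SD, n = 5 each). The difference was -2.20 ± 0.17 (SE; 95% confidence interval -2.57 to -1.83), or 4.59-fold lower with genistein (limma adjusted p = 0.00128). Its enzyme belongs to the reductases that protect liver cells from reactive aldehydes.

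Apon (Entrez gene 304603), which encodes apolipoprotein N, stood at 9.90, 10.10, 9.98, 10.26 and 10.10 in genistein 1 to 5. In daidzein 1 to 5 it stood at 11.10, 10.93, 10.87, 10.90 and 10.89. The groups were separated by a gap wider than the range within either one, and all 5 genistein arrays also lay below the lowest isoflavone-free array (10.63; highest 10.90). Means were 10.07 ± 0.14 and 10.94 ± 0.09 (SD, n = 5). The difference was -0.87 ± 0.09 (SE; interval -1.06 to -0.67), or 1.82-fold lower (limma adjusted p = 0.0102). The call did not hold without genistein 3 (adjusted p = 0.0565), genistein 5 (0.0528) or daidzein 4 (0.0549), or with no filter on dim probe sets (0.0632).

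The starts of both called genes, and that of Gsta3, a glutathione S-transferase described below, are shown to set them against the antioxidant response element, the sequence that NRF2 binds. Each is a RefSeq promoter window of the GRCr8 assembly, 250 bases before to 50 after the annotated start. Akr7a3 lies at chr5:156876471-156876770 on the plus strand, Apon at chr7:1272868-1273167 on the minus strand and Gsta3 at chr9:31154739-31155038 on the plus strand. Capitals mark the core TGACNNNGC of the element on either strand.
Akr7a3: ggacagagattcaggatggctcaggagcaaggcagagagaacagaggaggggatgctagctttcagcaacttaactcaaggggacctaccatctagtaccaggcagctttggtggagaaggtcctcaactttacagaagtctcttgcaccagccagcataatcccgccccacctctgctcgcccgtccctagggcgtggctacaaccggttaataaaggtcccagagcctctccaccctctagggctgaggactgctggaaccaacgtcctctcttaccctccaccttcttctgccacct
Apon: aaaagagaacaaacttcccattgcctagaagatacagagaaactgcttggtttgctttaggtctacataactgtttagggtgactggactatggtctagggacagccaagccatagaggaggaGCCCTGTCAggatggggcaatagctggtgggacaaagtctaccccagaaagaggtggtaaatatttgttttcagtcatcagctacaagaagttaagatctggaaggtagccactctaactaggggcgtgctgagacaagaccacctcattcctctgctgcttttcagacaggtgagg
Gsta3: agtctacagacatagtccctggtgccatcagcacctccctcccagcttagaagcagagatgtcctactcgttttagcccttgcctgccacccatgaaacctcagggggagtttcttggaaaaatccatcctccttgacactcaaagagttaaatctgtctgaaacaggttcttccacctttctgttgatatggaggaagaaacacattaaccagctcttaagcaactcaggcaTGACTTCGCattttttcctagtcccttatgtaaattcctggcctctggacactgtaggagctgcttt

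The core was absent from the Akr7a3 window, stood on the reverse strand from base -127 of the Apon window (GCCCTGTCA as printed) and at base -17 of Gsta3 (TGACTTCGC), counted with the start base as 0. It was present in 3345 of 27457 rat promoter windows of this length (12.2%), in 1305 of the 8924 windows matched to tested genes (14.6%), and in 7 of 20 matched NRF2 targets (35%). Among genes whose arrays did not overlap it was in 19 of 100 windows of those lower with genistein and in 11 of 98 of those higher. These are letter matches in a short window and say nothing of binding.

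NRF2 switches on genes that conjugate, reduce and export reactive compounds and that make glutathione. Of 27 genes listed as its targets, 24 were measured and 21 passed the filter on dim probe sets. Akr7a3 was the 1 called, lower with genistein, against 0.0187% of all genes. The median difference of the 21 was -0.29, against 0.0017 over all genes. Of the 21, 14 were lower and 7 higher by sign (49.5% and 50.5% of all genes); 10 were lower and 1 higher at an unadjusted p under 0.05 (4.39% and 4.32% of all genes), and 5 did not overlap, all lower (1.08% of all genes). List medians per array, as deviations from the mean of the 10 arrays, lay between -0.15 and -0.09 with genistein. With daidzein they lay between 0.10 and 0.25 in 4 arrays and at -0.02 in daidzein 3, so the diets did not overlap.

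Gstm1, Gstm2 and Gstm3, mu-class glutathione S-transferases that couple glutathione to electrophiles, were lower in every genistein array than in any daidzein array. The mu-class genes outside the list, Gstm4 (-0.18), Gstm5 (-0.11) and Gstm7 (-0.21), overlapped between the diets. Gstm1 stood at 12.68, 12.58, 12.65, 12.81 and 12.77 in genistein 1 to 5 and at 13.19, 13.22, 13.16, 13.18 and 13.15 in daidzein 1 to 5. The daidzein arrays lay within 0.1 of each other, and the isoflavone-free arrays (12.84 to 13.07) lay between the diets. The difference was -0.48 ± 0.07 (SE; limma adjusted p = 0.0636). For Gstm3 it was -1.43 ± 0.20 (adjusted p = 0.0636), with genistein at 4.48 to 5.57 and daidzein at 6.22 to 6.80, near the dim end of the scale. For Gstm2 it was -0.76 ± 0.14 (adjusted p = 0.124). These are closely related genes, and cross-hybridisation between their probe sets was not tested. Gstm1 and Gstm3 passed the threshold without genistein 4 (limma adjusted p = 0.0411 and 0.0162) and with all 15 arrays (0.0138 and 0.0191).

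Gsta3, an alpha-class member of the same enzyme family, stood at 5.97, 7.05, 7.20, 5.08 and 6.01 in genistein 1 to 5 and at 8.46, 7.63, 7.66, 8.12 and 8.04 in daidzein 1 to 5. The diets did not overlap, and the isoflavone-free arrays, at 3.79 to 5.27, lay below all daidzein arrays and all genistein arrays but genistein 4. The difference was -1.72 (interval -2.53 to -0.91, limma adjusted p = 0.184). Nqo1, a quinone reductase, stood at 8.04 to 8.84 with genistein and 8.73 to 10.21 with daidzein, with a slight overlap, and at 6.07 to 8.43 without isoflavone. Its difference was -1.08 (interval -1.74 to -0.41, limma adjusted p = 0.308). Gclm and Gclc, the subunits of the enzyme that starts glutathione synthesis, differed by -0.43 (interval -0.80 to -0.05) and -0.29 (-0.75 to 0.17). Hmox1, heme oxygenase, differed by 0.06 (-0.21 to 0.32), and the pentose phosphate enzymes Pgd and Tkt by 0.01 each, so the list did not shift as a block. Abcc2, the canalicular exporter of conjugates, differed the other way by 0.40 (0.15 to 0.65, limma adjusted p = 0.307).

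**Figure D3:**
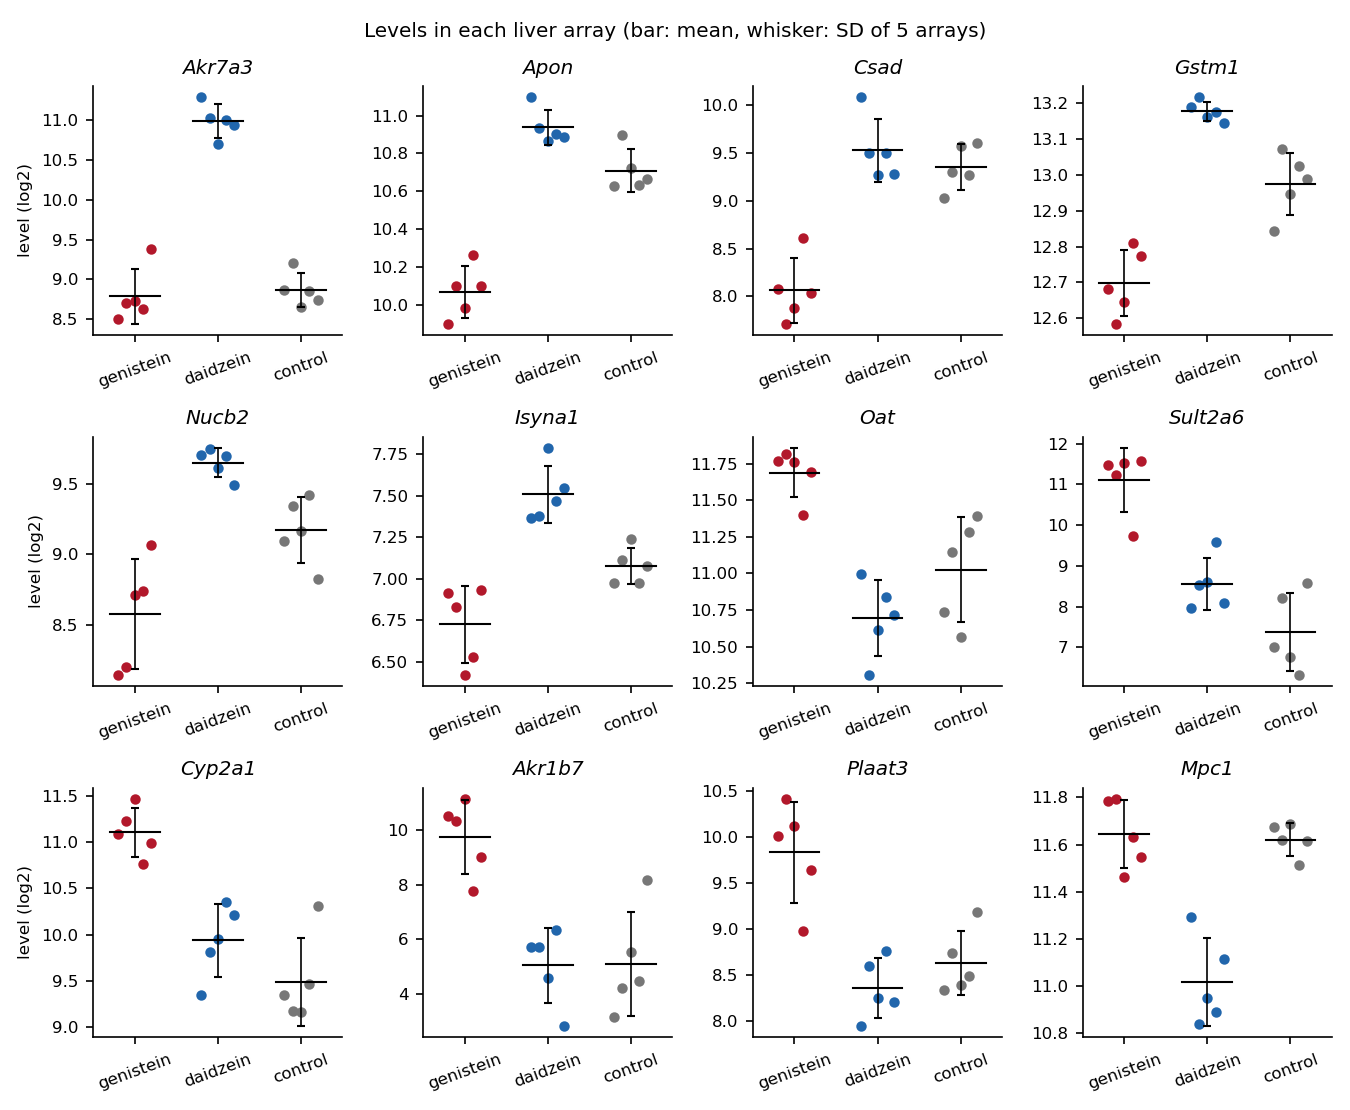
Level (log2, y axis with its own range in each panel) of 12 genes in every array, by diet, with the mean as a bar and the SD of 5 arrays as whiskers. Akr7a3 is at 8.50 to 9.38 with genistein and 10.69 to 11.28 with daidzein, and in all 12 panels the genistein and daidzein points do not overlap.

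Liver genes that differ between the sexes in rats follow the pulses of growth hormone: males secrete it in peaks and females more steadily. Of the genes listed as female-predominant, 10 were tested, and all 10 were higher with genistein by sign, with a median difference of 1.23. Of these, 8 had an unadjusted p under 0.05 and 5 did not overlap, against 4.32% and 1.09% of all genes; none was called. Of 14 tested male-predominant genes, 12 were lower and 2 higher by sign, with a median of -1.29; 11 had an unadjusted p under 0.05, all lower, and 2 did not overlap, against 4.39% and 1.08%; none was called. Both lists come from general knowledge of rat liver and were written with earlier results of these data known. They could not be checked here, since all rats were male.

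These differences were uneven among the genistein arrays. The male list stood at -1.40, -1.03, -1.08, 0.48 and 0.06 in genistein 1 to 5, as median deviation from the mean of the 10 arrays, and at 0.47 to 0.87 with daidzein. The female list stood at 1.00, 1.20, 1.21, -0.40 and 0.39 in genistein 1 to 5 and at -0.99 to -0.52 with daidzein. Genistein 1, 2 and 3 were far from the daidzein arrays in both lists, genistein 4 reached the daidzein range in the male list and came nearest to it in the female list, and genistein 5 lay between. Without genistein 4 the male median was -1.48 and the female median 1.57. Then 4 male-list genes were called lower (limma; Hsd3b5, Ust5r, Cyp3a18 and Hsd11b1), against 0.205% of all genes called lower, and 5 female-list genes were called higher (A1bg, Cd36, Cyp2a1, Sult2a6 and Trim24), against 0.168% called higher.

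**Figure D4:**
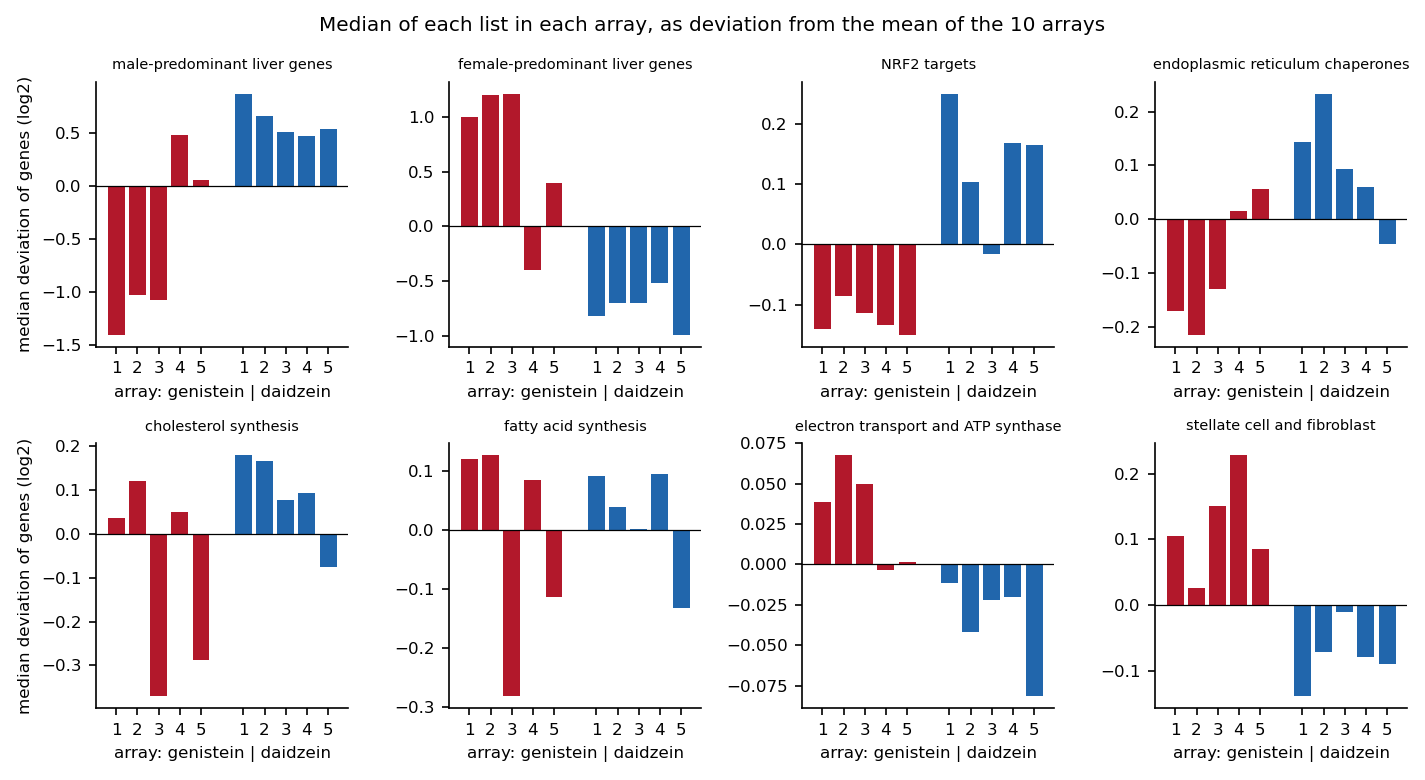
Median deviation of the tested genes of 8 lists (y axis, log2, own range in each panel) in genistein 1 to 5 and daidzein 1 to 5, relative to each gene's mean over the 10 arrays. Genistein 4 is at 0.48 in the male-predominant list and at -0.40 in the female-predominant list, apart from genistein 1 to 3.

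Sult2a6, a sulfotransferase of hydroxysteroids and bile acids that is female-predominant, stood at 11.49, 11.23, 11.53, 9.74 and 11.57 in genistein 1 to 5. In daidzein 1 to 5 it stood at 7.96, 8.53, 8.59, 9.58 and 8.08. Only genistein 4 came near the daidzein arrays, and the isoflavone-free arrays were at 6.33 to 8.57. The difference was 2.56 ± 0.40 (SE; interval 1.69 to 3.44, limma adjusted p = 0.0789), and 2.90 without genistein 4 (adjusted p = 0.00968). Cyp2a1, a testosterone hydroxylase, was at 10.76 to 11.46 with genistein, 9.35 to 10.36 with daidzein and 9.17 to 10.31 without isoflavone (difference 1.17 ± 0.19, limma adjusted p = 0.0850, or 0.0438 without genistein 4).

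Prlr, the prolactin receptor, stood at 9.96, 9.94, 10.02, 8.56 and 9.31 in genistein 1 to 5 and at 6.36, 8.11, 7.11, 8.23 and 5.75 in daidzein 1 to 5. The diets did not overlap, and the difference was 2.45 (interval 1.36 to 3.53, limma adjusted p = 0.155). Its 2 other probe sets tested differed by 1.95 and 2.83 and did not overlap either. A1bg, a plasma glycoprotein, ranged from 5.71 (genistein 4) to 10.70 (genistein 1) with genistein and from 4.41 to 5.54 with daidzein (difference 3.29, interval 1.56 to 5.01, limma adjusted p = 0.226, or 0.0455 without genistein 4).

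Hsd3b5, a male-predominant hydroxysteroid dehydrogenase, stood at 6.24, 6.74, 5.68, 10.45 and 9.15 in genistein 1 to 5. In daidzein 1 to 5 it stood at 11.27, 10.77, 11.01, 10.14 and 11.42. Genistein 4 lay inside the daidzein range and genistein 1 to 3 at least 3 units below it. The difference was -3.27 (interval -5.09 to -1.45, limma adjusted p = 0.258), and -3.98 without genistein 4 (adjusted p = 0.0438). Ust5r, an organic ion carrier (-2.42, interval -3.68 to -1.17), and Hsd11b1, the reductase that regenerates glucocorticoids (-0.97, interval -1.44 to -0.49), did not overlap. Obp3, a secreted lipocalin, differed by -3.78 (interval -6.04 to -1.52) and Cyp2c11, the main male cytochrome P450, by -1.27 (-2.06 to -0.49), both with overlap. Igf1, the secreted growth factor that growth hormone induces, differed by only 0.08 (-0.12 to 0.28), and Cyp2c22 by 0.03 (-0.31 to 0.37).

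Components of growth hormone signalling itself were tested in 18 genes, with a median of -0.06. Of these, 1 was higher (Prlr) and 3 lower at an unadjusted p under 0.05, against 4.32% and 4.39% of all genes. The growth hormone receptor Ghr differed by -0.27 (interval -0.53 to -0.00), Stat5b, its signal transducer, by -0.13, and Bcl6, a repressor of female genes in male liver, by -1.42 (-2.35 to -0.49, limma adjusted p = 0.340). Egfr, the epidermal growth factor receptor, did not overlap between the diets (9.55 to 10.32 against 10.33 to 11.004, difference -0.81, limma adjusted p = 0.159, or 0.0416 without genistein 4). Of its 2 other probe sets tested, 1 differed by -0.71 and 1 by 0.03, both with overlap.

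Dhrs7l1, of the short-chain dehydrogenase family, had the lowest difference among named genes, -4.59 (interval -6.48 to -2.70, limma adjusted p = 0.127). It stood at 6.28, 4.72, 4.95, 9.84 and 7.54 in genistein 1 to 5 and at 11.41, 10.56, 11.99, 10.69 and 11.65 in daidzein 1 to 5, with isoflavone-free arrays at 11.20 to 11.58. Slc22a8, an organic anion transporter, had a like order: 6.89, 7.06, 7.15, 9.97 and 8.65 in genistein 1 to 5 against 10.31 to 10.65 with daidzein (difference -2.59, adjusted p = 0.159). Both were higher in genistein 4 than in any other genistein array, did not overlap between the diets, and were called without genistein 4 (limma adjusted p = 0.00968 each). Akr1b7, an aldo-keto reductase, had the highest difference among named genes, 4.71 (interval 3.03 to 6.38, adjusted p = 0.0789). It stood at 10.49, 10.34, 11.12, 7.75 and 8.995 in genistein 1 to 5 and at 5.70, 5.73, 4.56, 6.35 and 2.83 in daidzein 1 to 5, where dim values depend on the background that was subtracted. Without genistein 4 it was called too (5.23, limma adjusted p = 0.0263).

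Of the 24 genes of lowest p that did not overlap, 12 per direction with Akr7a3 and Apon included, the isoflavone-free mean was nearer the daidzein mean in 18 and nearer the genistein mean in 6; over all 233 it was nearer in 144 and 89. Genistein 4 was the genistein array nearest to the daidzein mean in 12 of the 24, and in 93 of all 233 non-overlapping genes. The control arrays were used here for position only.

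Enzymes of amino acid and intermediary metabolism were among these genes. Oat, ornithine aminotransferase, stood at 11.77, 11.82, 11.76, 11.40 and 11.69 in genistein 1 to 5 and at 10.995, 10.31, 10.62, 10.84 and 10.72 in daidzein 1 to 5. All genistein arrays were above all daidzein arrays and above the isoflavone-free arrays (10.57 to 11.39). The difference was 0.99 ± 0.13 (SE; limma adjusted p = 0.0636), and it was called without genistein 4 (1.06, adjusted p = 0.0219) and with all 15 arrays (0.0326). Mpc1, a subunit of the carrier that brings pyruvate into mitochondria, was at 11.46 to 11.79 with genistein and 10.84 to 11.29 with daidzein (difference 0.63 ± 0.11, limma adjusted p = 0.100, or 0.0191 with all 15 arrays). There the isoflavone-free arrays (11.51 to 11.69) lay among the genistein arrays and above all daidzein arrays.

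Csad, the decarboxylase that makes hypotaurine on the way to taurine, stood at 8.08, 7.72, 7.88, 8.61 and 8.04 in genistein 1 to 5. In daidzein 1 to 5 it stood at 10.08, 9.498, 9.27, 9.505 and 9.28. The isoflavone-free arrays (9.03 to 9.61) lay with the daidzein arrays, and all genistein arrays were below them. The difference was -1.46 ± 0.19 (SE; limma adjusted p = 0.0636), and -1.61 without genistein 4 (adjusted p = 0.00968). The 18 tested genes of taurine and sulfur amino acid metabolism had a median of -0.06, and Cth, cystathionine gamma-lyase, differed by 0.56 (interval 0.20 to 0.92, adjusted p = 0.323).

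Nucb2, a calcium-binding protein of the secretory pathway and precursor of nesfatin, stood at 8.15, 8.20, 8.71, 8.74 and 9.06 in genistein 1 to 5 and at 9.70, 9.74, 9.61, 9.70 and 9.49 in daidzein 1 to 5. The isoflavone-free arrays (8.82 to 9.42) lay below all daidzein arrays and above all genistein arrays but genistein 5. The difference was -1.07 ± 0.17 (SE; limma adjusted p = 0.0789), and it was called without genistein 4 (-1.12, adjusted p = 0.0481) and with all 15 arrays (0.0191). Isyna1, the synthase of myo-inositol phosphate, was at 6.42 to 6.93 with genistein, 6.97 to 7.24 without isoflavone and 7.37 to 7.79 with daidzein, so the 3 diets did not overlap (difference -0.78 ± 0.13, limma adjusted p = 0.0789, or 0.0191 with all 15 arrays). The other 8 tested inositol genes differed by no more than 0.29 in size.

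The rest of these 24 genes were higher with genistein in Xpnpep2, an aminopeptidase (0.61, limma adjusted p = 0.0636), Sall1, a zinc finger factor (1.25, 0.0789), Camk2b, a kinase subunit (0.60, 0.0974), Rcn2, a calcium-binding protein (0.52, 0.0988), Plaat3, a phospholipase and acyltransferase (1.48, 0.100), Synpr (1.69, 0.121) and Zscan26 (0.49, 0.124). Another probe set of Camk2b differed by -0.37. Without genistein 4 Xpnpep2, Sall1 and Plaat3 were called (limma adjusted p = 0.0162, 0.0492 and 0.0162). They were lower in Mlc1, a membrane protein (-2.47, 0.0636), Epb41l5 (-0.49, 0.0974), Serpina3m, a serine protease inhibitor (-0.79, 0.100), Sec11c, a signal peptidase subunit (-0.46, 0.123), and Mab21l3 (-0.68, 0.124). Of these Mlc1, Epb41l5 and Serpina3m were called without genistein 4 (limma adjusted p = 0.0481, 0.0438 and 0.0438), and with all 15 arrays Plaat3 (0.0342) and Mab21l3 (0.0272). Mlc1 was uneven outside the comparison, at 3.99 to 8.61 without isoflavone.

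The liver clears isoflavones and steroids by glucuronidation and sulfation. Of 8 tested glucuronosyltransferase genes 2 did not overlap, both higher with genistein (1.09% of all genes): Ugt2b10 (10.12 to 10.52 with genistein, difference 0.50 ± 0.09, limma adjusted p = 0.130) and Ugt2b34l1 (difference 0.89 ± 0.20, adjusted p = 0.191). Ugdh, which makes the glucuronic acid donor, differed by -0.34 (interval -0.66 to -0.02). Of 12 sulfotransferase genes Sult2a6 was the 1 without overlap, higher with genistein (1.09% of all genes). Sult1a1, the phenol sulfotransferase, differed by -0.33 (-0.59 to -0.07, limma adjusted p = 0.445). The median difference of these lists was 0.27 and -0.10. Targets of CAR and PXR, receptors for drugs and foreign compounds, were tested in 19 genes, and their median was 0.19. Of these, 5 were higher and 3 lower at an unadjusted p under 0.05, against 4.32% and 4.39% of all genes. Cyp2a1, Cyp2c7, Cyp3a2 and Cyp3a18 of that list also stand in the sex lists. Of the 19 CAR and PXR targets, 4 did not overlap, all higher with genistein, against 1.09% of all genes. The drug-metabolising Cyp2c6v1 differed by 0.21 (0.04 to 0.39) without overlap. Of 6 tested genes of the aryl hydrocarbon receptor list only Nqo1 had an unadjusted p under 0.05, lower with genistein (4.39% of all genes). Cyp1a2, a target enzyme, differed by 0.45 (-0.01 to 0.90). The estrogen receptors Esr1 (3.92 to 4.86) and Esr2 (2.74 to 3.62) were below the filter level of 5.05 and were not tested, and the 11 tested estrogen-related genes had a median of -0.04.

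For lipid metabolism, the question in the series' title, the median differences were small in most lists. A small median does not show that the single genes were alike. Intervals lay within -0.5 to 0.5 for 11 of 24 fatty acid synthesis genes and 10 of 19 cholesterol synthesis genes, against 68.5% of all genes. They did so for 8 of 25 genes of triacylglycerol synthesis and lipid droplets. The share was higher in mitochondrial oxidation (16 of 20) and in apolipoprotein and lipoprotein genes (20 of 23). The genes of fatty acid synthesis had a median of 0.03 over 24 genes. At an unadjusted p under 0.05, 1 was higher and 2 lower, against 4.32% and 4.39% of all genes. None was called and none was without overlap, against 0.0187% and 2.17% of all genes. Fasn, fatty acid synthase, stood at 11.36, 11.27, 9.11, 11.70 and 10.49 in genistein 1 to 5 and at 11.66, 11.63, 11.22, 11.32 and 10.88 in daidzein 1 to 5. The low value of genistein 3 stood out, and the diets overlapped. The difference was -0.56 (interval -1.49 to 0.38, limma adjusted p = 0.779), and -0.14 without genistein 3; its interval reached beyond -1. Acaca, acetyl-CoA carboxylase, differed by 0.06 (-0.31 to 0.43), and Scd, stearoyl-CoA desaturase, by 0.12 (-0.12 to 0.36), so for both the interval stayed within 0.5. Another probe set of Acaca differed the other way, by -0.23, and another of Fasn by -0.28, both with overlap. Srebf1, which activates lipogenic genes, differed by -0.02 (-0.75 to 0.70), Mid1ip1, an activator of acetyl-CoA carboxylase, by -0.70 (-1.18 to -0.22, adjusted p = 0.359), and Mlxipl, the carbohydrate response factor, by 0.26 (0.07 to 0.45, adjusted p = 0.386). The signs of Acaca and Srebf1 changed when single arrays were left out.

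In cholesterol synthesis 15 of 19 tested genes were lower and 4 higher by sign (49.5% and 50.5% of all genes), with a median of -0.14. At an unadjusted p under 0.05, 4 were lower (4.39% of all genes) and none higher, and none was called. Dhcr7, which acts at the end of the pathway, stood at 10.08, 9.73, 9.25, 10.20 and 9.31 in genistein 1 to 5 and at 10.16 to 10.80 with daidzein. Genistein 3 and 5 were the lowest. The difference was -0.75 (interval -1.20 to -0.29, limma adjusted p = 0.305). Msmo1, Sqle and Fdft1, earlier enzymes, differed by -0.54, -0.43 and -0.29. The list medians per array were lowest in genistein 3 (-0.37) and genistein 5 (-0.29) and lay from -0.07 to 0.18 in the daidzein arrays. Genistein 1, 2 and 4, at 0.04, 0.12 and 0.05, lay inside the daidzein range, so the diets overlapped. Without genistein 3 the list median was -0.09, and without daidzein 5 it was -0.17, with 6 lower at an unadjusted p under 0.05. Without genistein 5 it was -0.11, with 2 lower.

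The lists of fatty acid oxidation had small medians. All 20 tested genes of mitochondrial oxidation and ketogenesis had intervals within -1 to 1, and 16 within -0.5 to 0.5, against 94.4% and 68.5% of all genes; the median was 0.03, or -0.03 without quantile normalization. At an unadjusted p under 0.05, 2 of the 20 were higher and 2 lower, against 4.32% and 4.39% of all genes. Acsl5, an acyl-CoA synthetase, was the 1 of the 20 without overlap, higher with genistein, against 1.09% of all genes. It differed by 0.49 (interval 0.24 to 0.75, limma adjusted p = 0.220), but another probe set of it by 0.06. Cpt1a, which admits fatty acids into mitochondria, differed by 0.23 (-0.13 to 0.58). The 28 tested targets of PPAR alpha, the fatty acid receptor, had a median of -0.01, or 0.11 without genistein 5. Of these, 1 was higher and 4 lower at an unadjusted p under 0.05, against 4.32% and 4.39% of all genes. Intervals lay within -0.5 to 0.5 for 10 of the 28, against 68.5% of all genes. Decr2, a peroxisomal reductase, was lower without overlap (-0.39 ± 0.09, adjusted p = 0.220). Vnn1, a pantetheinase, differed by -0.93 (-1.40 to -0.45, adjusted p = 0.216). Cd36, the fatty acid translocase that also stands in the female list, differed by 1.26 (0.36 to 2.17), with genistein 4 at 6.87 and the other genistein arrays at 8.70 to 9.20. Without genistein 4 its difference was 1.70 (limma adjusted p = 0.0162).

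Triacylglycerol synthesis and lipid droplet genes had a median of -0.01 over 25 genes, and 2 did not overlap, both higher (1.09% of all genes). At an unadjusted p under 0.05, 2 were higher and 2 lower, against 4.32% and 4.39% of all genes. Dgat2, which makes triacylglycerol, stood at 11.23, 11.12, 11.34, 11.06 and 11.16 in genistein 1 to 5 and at 10.89, 10.74, 10.55, 10.62 and 10.11 in daidzein 1 to 5. The difference was 0.60 ± 0.14 (limma adjusted p = 0.198), and a second probe set differed by 0.72, also without overlap. Lipa, the lysosomal acid lipase, was at 10.33 to 10.81 with genistein and 9.91 to 10.26 with daidzein (0.50 ± 0.12, adjusted p = 0.220). The isoflavone-free arrays (9.77 to 10.19) lay with the daidzein arrays for Lipa and spanned the gap between the diets for Dgat2, at 10.60 to 11.09. The genes on the lower side were Gpat4, a glycerol phosphate acyltransferase (-0.41, interval -0.68 to -0.14, adjusted p = 0.341 with limma), and Cidea, a lipid droplet protein (-0.54, -0.93 to -0.15). A second probe set of Gpat4 differed by -0.57 and did not overlap (limma adjusted p = 0.0789). The 23 apolipoprotein and lipoprotein genes had a median of -0.01, with 20 intervals within -0.5 to 0.5. Apon was the 1 called, lower with genistein, against 0.0187% of all genes. Abca1, the cholesterol exporter, differed by 0.94 (0.26 to 1.62, limma adjusted p = 0.385), or 0.63 without daidzein 2. Other Abca1 probe sets differed by 0.03, -0.12 and 0.62. Mttp, which loads lipid onto apolipoprotein B, differed by 0.28 (0.09 to 0.47).

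Bile acid synthesis and transport had a median of 0.15 over 18 genes. Of these, 15 were higher by sign and 4 higher at an unadjusted p under 0.05, against 50.5% and 4.32% of all genes. None was called. Akr1d1, the reductase of bile acid synthesis, differed by 0.53 (interval 0.20 to 0.86, limma adjusted p = 0.307), the uptake carrier Slco1b2 by 0.39 (0.11 to 0.66) and the phospholipid exporter Abcb4 by 0.31 (0.03 to 0.60). Cyp7a1, the rate-limiting enzyme of bile acid synthesis, differed by -0.14 (-1.09 to 0.81), with a sign that changed when single arrays were left out. Its levels were dim and spread widely, from 4.75 to 6.99 with genistein and 5.05 to 6.80 with daidzein.

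**Figure D5:**
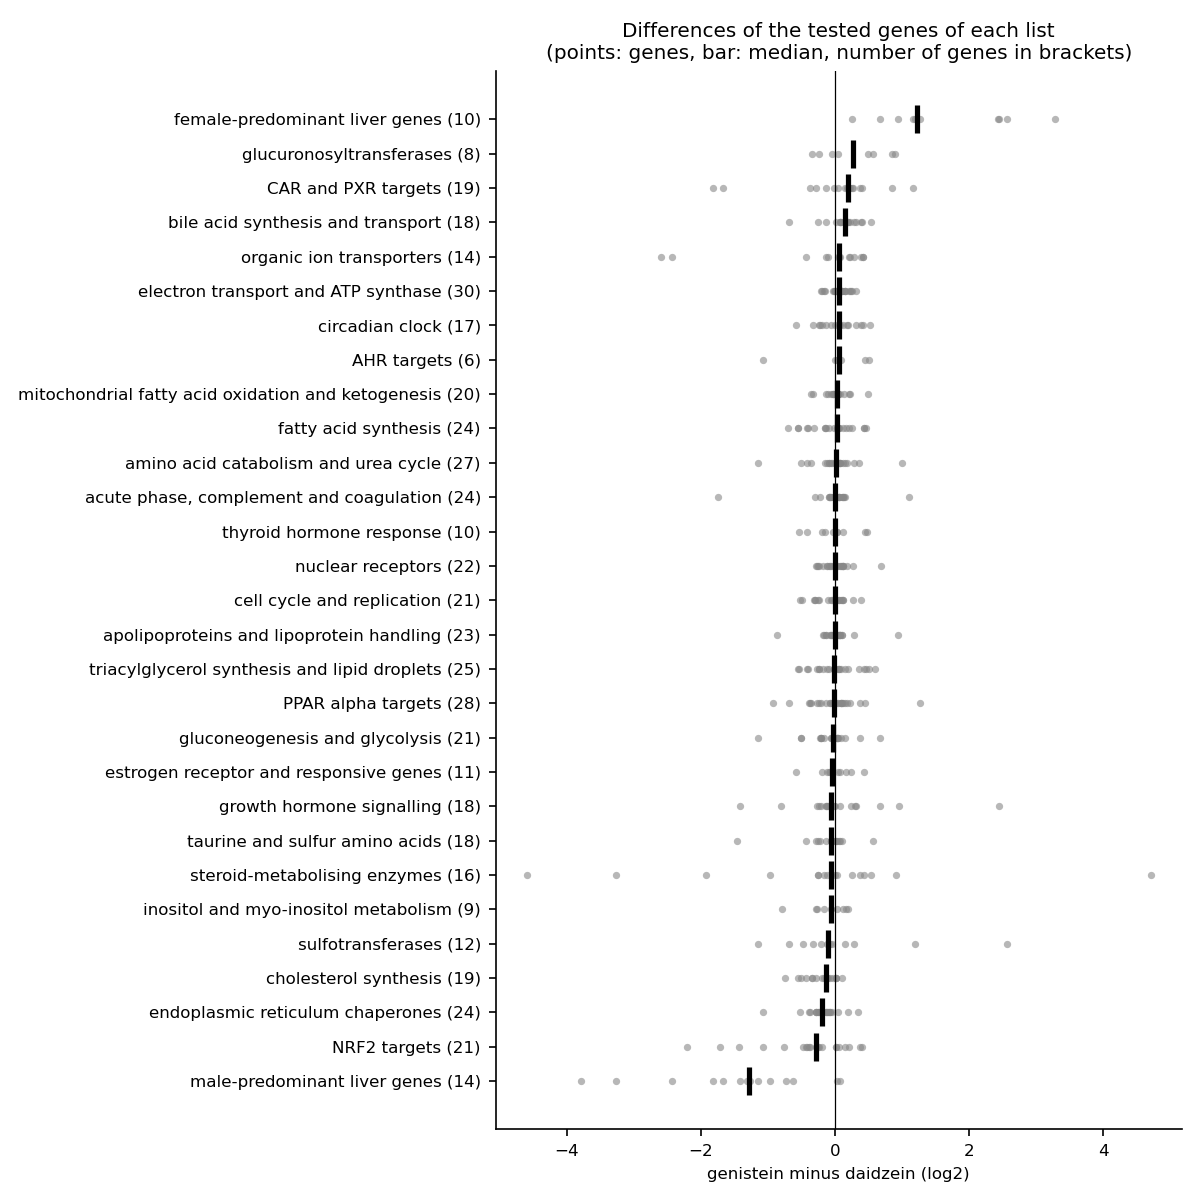
Difference between the diets (x axis, genistein minus daidzein, log2) of every tested gene (points) in 29 lists (rows, with the number of genes), with the list median as a bar. The female list (median 1.23) and the male list (-1.29) lie farthest from 0, followed by the NRF2 list at -0.29.

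Chaperones of the endoplasmic reticulum, which fold secreted proteins, had a median of -0.19. By sign 21 of 24 were lower, and 8 were lower at an unadjusted p under 0.05, against 49.5% and 4.39% of all genes. None was higher at that p, and none was called. The list includes Nucb2. Pdia3, a disulfide isomerase, differed by -0.39 (interval -0.66 to -0.12, limma adjusted p = 0.359), Sdf2l1 by -0.51 (-0.88 to -0.15) and Manf by -0.24 (-0.45 to -0.03), while Hspa5, the main chaperone, differed by -0.18 (-0.44 to 0.08). List medians per array were -0.22 to -0.13 in genistein 1 to 3, 0.02 and 0.06 in genistein 4 and 5, and -0.05 to 0.23 with daidzein, so the diets overlapped. Electron transport and ATP synthase genes had a median of 0.07. Of 30, 24 were higher by sign and 28 had intervals within -0.5 to 0.5, against 50.5% and 68.5% of all genes. Ndufa1 (0.32), Cox6c (0.26) and Cox7c (0.24) had the lowest p in that list, and without quantile normalization the median was 0.01. The list of 24 acute phase and coagulation genes had a median of 0.00. In it 1 gene was higher and 1 lower without overlap, against 1.09% and 1.08% of all genes. The lower 1 was Crp, C-reactive protein (-0.30 ± 0.07, limma adjusted p = 0.216). Sds, serine dehydratase, differed by -1.15 (-1.81 to -0.48, adjusted p = 0.284), while gluconeogenesis and glycolysis had a median of -0.04 and amino acid catabolism one of 0.02. Circadian clock, thyroid hormone, cell cycle and nuclear receptor lists had medians of 0.06, 0.00, -0.00 and -0.00 with none called.

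Markers of other liver cells were set beside these results. In bulk tissue, fewer cells of a type and less RNA per cell cannot be told apart. Hepatocyte genes hold the brightest ranks, which quantile normalization sets equal, so their near-zero differences say nothing of hepatocyte content. Of 9 tested stellate cell and fibroblast genes 8 were higher with genistein by sign (median 0.24) and 3 at an unadjusted p under 0.05, against 4.32% of all genes, with the collagens Col3a1 at 0.32 (interval 0.09 to 0.54) and Col1a2 at 0.24 (0.03 to 0.45); none was called or without overlap. The list had 10 measured genes, 1 of them below the filter. The summed linear signal of the 10 was 2618 to 2861 with genistein, 2106 to 2506 with daidzein and 2586 to 2836 without isoflavone. The sums of the 2 isoflavone diets thus did not overlap. The list medians per array did not overlap either, at 0.03 to 0.23 and -0.14 to -0.01. The desmin gene Des differed by 0.05 and Acta2 by -0.05. Of 6 tested lymphocyte genes all 6 were higher by sign (median 0.23), against 50.5% of all genes. List medians were 0.04 to 0.24 against -0.27 to -0.01, which did not overlap. Sums over the 7 measured genes, 1 of them below the filter, were 262 to 306 against 239 to 287, which overlapped. The 2 tested neutrophil genes had a median of -0.43. Sums over the 4 measured neutrophil genes, 2 of them below the filter, were 106 to 158 against 137 to 213. The summed signal of 6 measured genes of pericentral hepatocytes, those around the central vein, was 13013 to 17011 with genistein and 9668 to 11328 with daidzein. Without isoflavone it was 10442.1 to 12836.5. That sum includes Oat, and Cyp2e1, a brighter member, differed by 0.34 (0.06 to 0.63). The list medians per array overlapped, at -0.065 to 0.422 with genistein and -0.318 to 0.035 with daidzein. Glul, glutamine synthetase, the strictest pericentral marker, differed by -0.06 (-0.38 to 0.26). Kupffer cell (median 0.17) and endothelial (0.05) genes overlapped in their sums. The part of these cell type values in the differences of other genes was not tested.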

How the data were processed

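The authors deposited 1 table of score values, which they had put on a common spread within each array, for 31099 probe sets in 15 arrays of a 1-colour Affymetrix rat design (biotin label, per the labels). Their software, background correction and probe summary are "not given in the sources used here". A log2 scale was inferred from the values: of 1164 values repeated at least 20 times in an array, 1161 were logs of whole numbers, or means of 2 such logs, within 0.001. Scores were multiplied by 2.59 log2 units, the mean over the 10 arrays (2.54 to 2.69), so sizes depend on this inference and dim values on the background subtracted. Probe sets with missing values (83) were left out of the test.

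The 57 control probe sets were left out. The 10 arrays were quantile normalized, and probe sets whose mean level reached the 40th percentile (5.05), 18575 in all, were tested with limma 3.58.1 (R 4.3.3, lmFit and eBayes, 8 residual and 2.6 prior degrees of freedom). Adjusted p is Benjamini-Hochberg over all 18575; SE and intervals come from this model, SD from the 5 arrays. Control arrays were mapped onto the same quantiles for display only. The number of arrays limits precision.

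Symbols came from the array annotation, which can be old: 1 symbol was given for 20826 probe sets, several for 436, none for 9780, and 20758 matched the current rat gene table. A gene was represented by its brightest probe set. The comparison, its members and the gene lists were chosen with earlier results of these data known, so the lists are no independent evidence. Named were called genes, up to 12 non-overlapping genes per direction by p, up to 4 per list by p, and 16 chosen genes. Some of the chosen genes are not reported here. Other list members were named, after their values were seen, for their roles. The steps were tested on simulated data. Replicate numbers in titles (r of residuals -0.17 to 0.08) and descriptions (-0.01 to 0.08) did not pair the arrays. Alternatives are in the closing section.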

Additional observations from a re-analysis of the deposited data

Results flagged for a closer look

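In 21 of 308 groups examined (250 for genes, 58 for lists) 1 of the 5 arrays of a diet stood apart from the other 4 by Dixon's criterion. Chance alone meets it in about 1 group in 20, so a count of about this size is no pattern in itself. Among the genes called or of lowest p without overlap these were Sult2a6 in genistein 4 (9.74, the others 11.23 to 11.57), Akr7a3 in genistein 5 (9.38, the others 8.50 to 8.73), Apon in daidzein 1 (11.10, the others 10.87 to 10.93), Csad in daidzein 1 (10.08, the others 9.27 to 9.505), Mlc1 in genistein 2 (6.40, the others 4.20 to 4.56) and Sec11c in genistein 5 (8.49, the others 8.25 to 8.30). For Sult2a6, Akr7a3, Mlc1 and Sec11c the single array lay toward the other diet, and for Apon and Csad away from it. In lipid genes they were Decr2 (10.17) and Cd36 (6.87) in genistein 4, Mttp in daidzein 4 (10.46), Abca1 in daidzein 2 (7.22) and Apoa4, an apolipoprotein, in daidzein 3 (13.24). The others were Ahr, the aryl hydrocarbon receptor, in daidzein 2 (4.80), Sult1c3 in daidzein 2 (11.57), Cox6c in daidzein 1 (11.42), Ndufa2 in genistein 5 (9.83), Ppargc1a in daidzein 1 (4.12), Per2 in genistein 4 (6.58) and Nr1i2, the receptor PXR, in genistein 3 (8.40). List medians standing apart were the PPAR alpha targets in daidzein 1 (-0.13, the others 0.05 to 0.10) and the cell cycle genes in genistein 1 (0.29, the others -0.06 to -0.02) and daidzein 2 (-0.20, the others 0.05 to 0.12).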

How the results depend on the processing

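The count of probe sets called (2, with 2 genes) kept its size with each array's own scale and without quantile normalization (2 each, both lower). It was 21 (6 higher, 15 lower; 15 genes) with all 15 arrays, 14 (7 and 7; 11 genes) with 16 added to the intensities, 19 (10 and 9; 15 genes) with a filter at the 60th percentile, 21 (10 and 11; 16 genes) with a trended robust prior, 11 (6 and 5; 8 genes) with array weights and 1 with no filter. The mean of a gene's probe sets gave 8 genes. Leaving out 1 array gave 1 to 57 probe sets and 1 to 40 genes: 57 without genistein 4, 8 without daidzein 2, 5 without daidzein 1, 4 without genistein 2, and 1 without genistein 3, genistein 5 or daidzein 4. With the replicate numbers as a block the count was 0. By titles 1547 probe sets had an unadjusted p under 0.05 (lowest limma adjusted p 0.163), and by descriptions 1846 (0.127). The numbers were not found to pair the arrays. The fit by descriptions held only arrays whose number occurs in both diets, so genistein 4 and daidzein 1 were left out of it. Akr7a3 lost its call in the block fits only. Signs changed without single arrays for Acaca (-0.051 to 0.18), Cyp7a1 (-0.43 to 0.13), Srebf1 (-0.21 to 0.20) and Cyp1b1 (-0.017 to 0.19). Without quantile normalization fatty acid synthesis (-0.05), acute phase (-0.07), amino acid (-0.04), thyroid (-0.05) and mitochondrial oxidation (-0.03) medians changed sign. Why these values moved was not tested. Genes with an interval within -1 to 1 numbered within 1.5 times the 10119 under every alternative. That bound is wide, since only 10721 genes were tested in the main fit, so it says little of stability.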
